A study of Mus musculus with 4 samples.

Results

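The 7 genes described here, Barhl1, Barhl2, Olig1, Olig2, Olig3, Gbx2 and Dbx1, encode transcription factors that pattern the alar diencephalon, the dorsal part of the posterior forebrain. They were chosen by name from a table of 33708 autosomal genes measured by RNA-sequencing in the frontonasal prominence (FNP) of the mouse embryo, the primordium of the midface, which forms nose and snout. They were picked with the values of this same comparison in view, so all differences between genotypes given for them are descriptions. The table covered 4 FVB/NJ embryos at E10.5, all with 29 somites. The WT group comprised 2 Smchd1+/+ embryos, labelled female and male, and the MD43 group comprised 2 male embryos homozygous for MommeD43, a chemically induced missense allele of Smchd1. Each FNP came from a single embryo, WT replicate 2 and MD43 replicate 2 shared a mother, and the sex of WT replicate 2 is female in a separate record, in which case sex and genotype cannot be told apart.

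Signals from neighbouring tissues divide the diencephalon into the prethalamus, the thalamus and the pretectum, and the zona limitans between the first pair acts as an organizer that secretes Sonic hedgehog. Homeobox factors and basic helix-loop-helix (bHLH) factors then fix the identity of the progenitors in each region. BARHL1 and BARHL2 are homeodomain proteins of the BarH family, and BARHL2 takes part in forming the zona limitans and the thalamus. OLIG1, OLIG2 and OLIG3 are related bHLH factors. Olig2 marks prethalamic progenitors and Olig3 thalamic ones, and elsewhere in the nervous system Olig2 is needed for motor neurons and oligodendrocytes. GBX2 is a homeodomain protein of thalamic neurons, and DBX1 is a homeodomain protein of progenitors in several parts of the neural tube.

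The table held 1 log2 RPKM value per genotype (RPKM being reads scaled by transcript length and by the depth of the library), into which the authors had merged both libraries. No spread between embryos could be computed from it and no test of the genotypes was made. The values nevertheless fixed, for each gene, the product of the 2 read counts behind each value. A gene's reads in a genotype are given below as the geometric mean, that is the root of this product. Each log2 difference carries a lower limit on its standard error, from counting alone. The background was formed by 15381 genes that reached 10 reads in WT, MD43 or both. The implied depth was 22328791 reads per library in MD43 and 16055882 in WT.

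The mutated gene itself differed little in level. Smchd1 was at 3.30 log2 RPKM in MD43 and 3.31 in WT, a log2 difference of -0.013 ± 0.024 (counting SE).

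Apart from Barhl1, whose values at next to no reads are set by depth, no member was higher in MD43. Of the 7 members, 5 passed the filter of 10 reads, all 5 were lower in MD43 and 3 of them, Barhl2, Olig3 and Dbx1, were at least 2-fold lower, where the background had 2.48% of its genes past this limit in the same direction and 1.64% in the other. At 1.5-fold all 5 were lower, against 6.44% of the background, and at 4-fold Barhl2 and Olig3, against 0.377%. The members were selected on this contrast, so the count carries no evidence of its own. Folds of this size were commoner among weakly expressed genes. With 10 to 50 reads in the higher genotype (the range of Olig3), 9.39% of genes were lower by 2-fold or more and 7.6% higher. With 50 to 200 reads (Barhl2, Dbx1 and Olig1) the shares were 3.33% and 1.03%, and with 200 to 1000 reads (Olig2) 0.572% and 0.191%. The median log2 difference of the 5 members was -1.40, against 0.0055 for the background. With 1 RPKM added to both values, Barhl2 alone stayed past 2-fold. Just outside the limits lay Gbx2, 2.12-fold lower on reads that missed the filter, and Olig1, which passed the filter and was 1.63-fold lower.

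**Figure D1:**
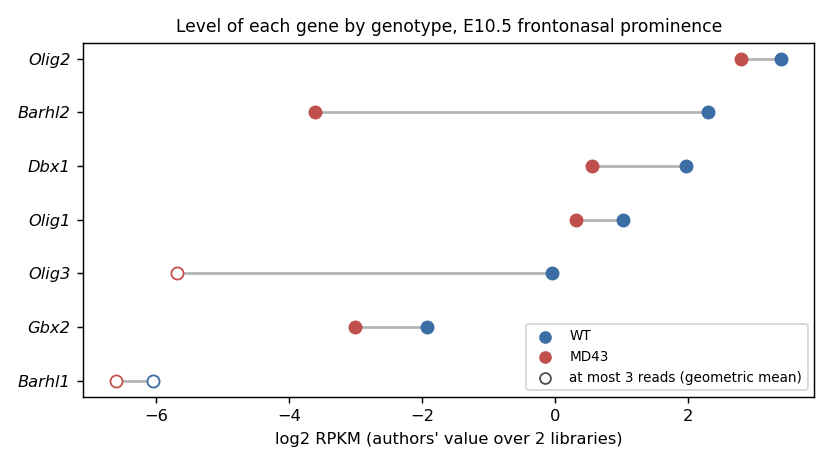
Level of the 7 genes in log2 RPKM (x axis) in WT (blue) and MD43 (red), each point the authors' value over 2 libraries, with open points for genotypes with at most 3 reads. Barhl2 lies above Dbx1 in WT at 2.30 and below Gbx2 in MD43 at -3.61, while Olig2 is the highest of the 7 genes in both genotypes.

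On the log2 RPKM scale, which allows levels of different genes to be compared, the order in WT was Olig2 (3.40), Barhl2 (2.30), Dbx1 (1.96), Olig1 (1.02), Olig3 (-0.05), Gbx2 (-1.93) and Barhl1 (-6.05). In MD43 it was Olig2 (2.80), Dbx1 (0.56), Olig1 (0.31), Gbx2 (-3.02), Barhl2 (-3.61), Olig3 (-5.68) and Barhl1 (-6.60). The last 2 values in MD43 and the last in WT stand for genes at or next to no reads and are set by sequencing depth. Whether neighbours in either order differ beyond the spread between embryos was not analysed here. In WT the level of Barhl2 exceeded that of 49.1% of the background genes, and in MD43 it exceeded that of 1.06%.

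The sequences before the RefSeq starts of Barhl2, Olig3 and Dbx1 are shown because these were the 3 members lowered past 2-fold on at least 10 reads, and they show how unlike their promoters are. Each run is the 250 bases before the start, 5′ to 3′ on the gene's strand (RefSeq, GRCm38.p6), with the E-box CANNTG, the core recognised by bHLH proteins such as the OLIG factors, and the homeodomain core TAAT (either strand) in capitals. Barhl2 is at chr5:106458167-106458416 (minus strand), Olig3 at chr10:19356289-19356538 (plus strand) and Dbx1 at chr7:49636836-49637085 (minus strand).
Barhl2: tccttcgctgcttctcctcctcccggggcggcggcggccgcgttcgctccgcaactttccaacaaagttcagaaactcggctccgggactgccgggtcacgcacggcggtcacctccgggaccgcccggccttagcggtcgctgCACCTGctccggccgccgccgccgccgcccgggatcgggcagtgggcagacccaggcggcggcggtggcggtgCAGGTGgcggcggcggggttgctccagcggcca
Olig3: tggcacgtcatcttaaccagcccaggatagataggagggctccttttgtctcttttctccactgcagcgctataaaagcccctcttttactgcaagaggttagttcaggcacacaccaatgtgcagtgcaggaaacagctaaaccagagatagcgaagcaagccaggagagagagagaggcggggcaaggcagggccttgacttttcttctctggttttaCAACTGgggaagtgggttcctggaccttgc
Dbx1: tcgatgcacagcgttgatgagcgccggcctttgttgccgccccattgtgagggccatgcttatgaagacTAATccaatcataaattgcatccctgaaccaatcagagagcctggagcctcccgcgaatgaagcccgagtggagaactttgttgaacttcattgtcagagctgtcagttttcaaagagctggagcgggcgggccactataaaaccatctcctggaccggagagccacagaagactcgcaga
The Barhl2 run held 36 CpG dinucleotides, more than 97.4% of the 32851 RefSeq promoters cut to the same length, and was 74.8% G or C. The Olig3 run held 4 CpG, under the median of 6, and the Dbx1 run held 12. CANNTG occurred 2 times before Barhl2, 1 time before Olig3 and 0 times before Dbx1, and in 66.2% of all promoters. TAAT occurred 1 time before Dbx1 and 0 times before the other 2, and in 54.9% of all promoters. A TATAAA motif was found before Olig3 and Dbx1 and not before Barhl2, and in 12.4% of all promoters. No CANNTG overlapped a TAAT in these runs. RefSeq promoters were matched for 6 of the 7 members, all but Olig1.

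Barhl2 (ENSMUSG00000034384, chromosome 5, 106452523 to 106458166, minus strand, GRCm38, protein coding) had the lowest log2 difference of the background genes once genotypes with at most 3 reads were set to 3 reads. The recovered product was 33490 in WT and 18 in MD43, both within 0.1 of a whole number. For MD43 this product left 4 possible pairs of reads, namely 3 and 6, 2 and 9, 1 and 18, or 0 and 20. For WT it left 8 pairs, of which 170 and 197 was the nearest to equal and 85 and 394 the next. In every pair the higher MD43 library thus had at most 20 reads and the higher WT library at least 197. The geometric means were 183 reads in WT and 4.24 in MD43, a log2 difference of -5.91 ± 0.50 (counting SE), or 60.0-fold lower.

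The lincRNA Gm26872 lies 7633 bp from Barhl2 on the same strand. It had exactly 1 read in each MD43 library, and a WT product of 882, with 21 and 42 reads as the pair nearest to equal. The ratio of WT to MD43 was 41.3, with an exact 95% Poisson interval of 11.4 to 341 for the 2 MD43 reads alone.

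Barhl1 (ENSMUSG00000026805, chromosome 2, 28907679 to 28916668, minus strand), the closest relative of Barhl2, was hardly read in this tissue. It had 0 reads in both MD43 libraries, and in WT 1 read in 1 library and 0 in the other. No fold was computed, and a difference between genotypes was not detectable at this depth. Its neighbour Ddx31, 2107 bp away, was at 433 reads in WT and 730 in MD43.

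Olig3 (ENSMUSG00000045591, chromosome 10, 19356533 to 19358604, plus strand) had 0 reads in both MD43 libraries. Its WT product of 1032 left 8 pairs, of which 24 and 43 was the nearest to equal and the only one within a 4-fold ratio. The next pair was 12 and 86. With MD43 set to 3 reads per library, the geometric mean of 32.1 reads in WT made Olig3 at least 14.9-fold lower.

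**Figure D2:**
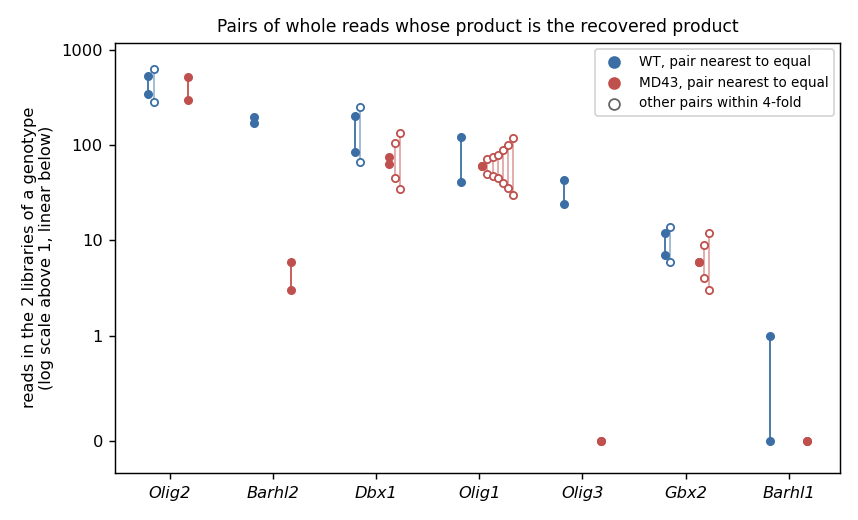
Reads in the 2 libraries of each genotype (y axis, log scale above 1 and linear below) for the pairs of whole reads that give the recovered product, WT in blue and MD43 in red. Filled points joined by a line are the pair nearest to equal and open points the other pairs within a 4-fold ratio. The pairs of Barhl2 and Olig3 stand far apart between genotypes, and those of Olig2, Olig1 and Gbx2 overlap.

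How unequal a pair can be was judged from genes whose product has exactly 2 prime factors, which leaves a single pair besides 1 read against all others. Between products of 2500 and 200000, the pair of primes was within a 4-fold ratio for 175 of 178 such genes in WT (98.3%) and for 149 of 151 in MD43 (98.7%). Their median ratios were 1.499 and 1.54. These ratios hold the difference in depth of the 2 libraries as well as that between embryos. Between products of 500 and 2500, the range of Olig3 in WT, 95.4% of 87 genes in WT were within 4-fold.

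Dbx1 (ENSMUSG00000030507, chromosome 7, 49631499 to 49636849, minus strand) was at 131 reads in WT and 68.7 in MD43, a log2 difference of -1.40 ± 0.15 (counting SE), or 2.64-fold lower. Its WT product of 17085 had no pair closer to equal than 85 and 201, so the 2 WT libraries were at least 2.36-fold apart, beyond the 90th percentile of 2.18 for the genes with 2 prime factors. The MD43 product of 4725 allowed pairs as close as 63 and 75. The lower WT library had at most 85 reads and the higher MD43 library at least 75, before scaling for depth. The 2.64-fold difference between genotypes was not far above the smallest gap between the WT libraries, though only the former was scaled for depth.

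Olig2 (ENSMUSG00000039830, chromosome 16, 91225457 to 91228677, plus strand), the most abundant of the 7 genes, was at 428 reads in WT and 393 in MD43. Scaled for depth this was a log2 difference of -0.60 ± 0.07 (counting SE), or 1.51-fold lower. The WT product of 182819 left 343 and 533 or 287 and 637 within 4-fold, and the MD43 product of 154066 left 298 and 517. The smallest gap between libraries was 1.55-fold in WT and 1.73-fold in MD43, larger than the difference between genotypes, though close to the median ratios that hold depth.

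Olig1 (ENSMUSG00000046160, chromosome 16, 91269772 to 91271933, plus strand) lies 41094 bp beyond Olig2 on the same strand. It was at 70.4 reads in WT and 60.0 in MD43, a log2 difference of -0.71 ± 0.18 (counting SE), or 1.63-fold lower. Its WT product of 4961 had only 3 pairs, and the nearest to equal was 41 and 121. This 2.95-fold gap exceeded the difference between genotypes, though it also holds the difference in depth of the 2 libraries. The gap also lay beyond the 90th percentile of 2.18 in WT for the genes with 2 prime factors. The log2 differences of Olig1 and Olig2 were 0.11 ± 0.19 apart (counting SE), which is within counting error, and Olig2 stayed above Olig1 by 2.38 log2 RPKM in WT and 2.48 in MD43. Gm15966, a lincRNA on the opposite strand that overlaps Olig1, had 1.34 reads in WT and 4.47 in MD43. Whether the authors counted by strand is not given in the sources used here, so reads of overlapping genes may be shared.

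Gbx2 (ENSMUSG00000034486, chromosome 1, 89927956 to 89931179, minus strand) had few reads. The WT product was 84, with 7 and 12 as the pair nearest to equal, and the MD43 product was 36, with 6 and 6 nearest. The log2 difference of -1.09 ± 0.54 (counting SE) rested on 9.17 against 6 reads, and its 95% counting interval of -2.14 to -0.04 nearly reached 0. With 1 RPKM added to both values the difference was -0.17. D130058E05Rik, on the opposite strand and overlapping Gbx2, was at 7.21 reads in WT and 5.92 in MD43.

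**Figure D3:**
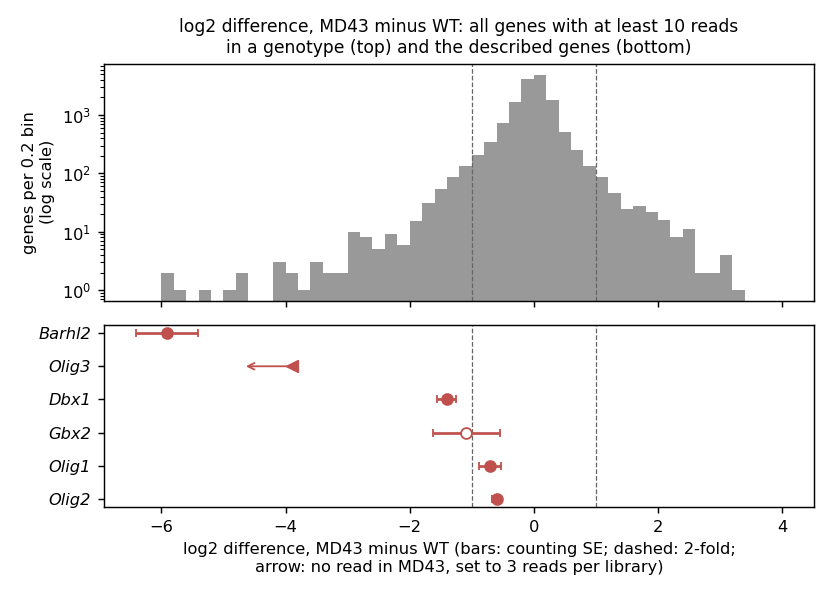
The upper panel counts the background genes by log2 difference, MD43 minus WT (log y axis), and the lower panel places 6 of the 7 genes on the same scale, with bars of 1 counting SE, an open point for Gbx2 (under 10 reads) and an arrow for Olig3, set to 3 reads per library in MD43. Barhl2 lies at the lower end of the background at -5.91, and Olig1 and Olig2 lie inside the 2-fold lines.

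By Euclidean distance over the 2 genotype values in log2 RPKM, Olig3 was nearest to Gm26872 (0.24) and Foxb1 (0.35). Dbx1 was nearest to Mab21l2 (0.061) and Nrn1 (0.091), Olig2 to Gm48283 (0.029) and Hapln1 (0.052), Olig1 to Fkbp7 (0.043) and Gm20735 (0.054), and Gbx2 to A630001G21Rik (0.039) and Tcp11 (0.043). Barhl2 had no such close match, since the nearest genes, Gm27199 and Gm30731, were 1.94 and 1.97 away. The likeness covers 2 values, and for Barhl1 both are set by depth. In MD43 Olig3 had 0 reads, Gm26872 1 per library and Foxb1 1.34, so the likeness of these genes is one of WT level alone.

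Other regulators of the diencephalon were then examined through 4 lists. Of 51 listed genes, 48 belonged to the background. Of these, 30 were lower in MD43 and 18 higher, with 8 past 2-fold among the lower and 1 among the higher, and with a median log2 difference of -0.33. In the background, 48.8% of genes were lower, 2.48% passed the 2-fold limit downward and 1.64% passed it upward. Among the 8, Foxa1, Gsx1, Lhx1 and Irx1 had 10 to 50 reads in their higher genotype, as did Foxa2, the 1 higher gene. In that range of reads the background shares were 9.39% downward and 7.6% upward. The lists are counted here without the 7 members.

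Genes of the thalamus were split. Of the 13 with enough reads, 6 were lower and 7 higher, with a median of 0.11, which became -0.0702 without the filter on reads. The proneural gene Neurog2 was lower by a log2 difference of -1.06 ± 0.10, the nuclear receptor gene Rora by -0.88 ± 0.13 and the homeobox gene Prox1 by -0.72 ± 0.12. Lhx2, a LIM homeobox gene with the most reads of the list, was higher by 0.49 ± 0.02. The higher genes included Tal1 (0.66 ± 0.11), Gata2 (0.32 ± 0.09) and Gata3 (0.17 ± 0.12). Tal1 and Gata2 are also regulators of blood and endothelium, and red blood cell genes were higher in MD43 with a median of 0.84, whose part in these values was not tested. Other genes of this list, Lhx2 among them, are also active in the telencephalon or the placodes, so they do not show that thalamic cells were in the dissected pieces, and Gbx2 itself was close to the floor.

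In the prethalamus list, 9 of 14 genes were lower and 5 higher, with a median of -0.25. The LIM homeobox genes Lhx5 (-1.12 ± 0.07) and Lhx1 (-1.03 ± 0.23) and the homeobox gene Gsx1 (-1.06 ± 0.31) were at least 2-fold lower. The 5 higher genes were Dlx5 (0.52 ± 0.10), Sp8 (0.34 ± 0.05), Isl1 (0.33 ± 0.10), Dlx6 (0.27 ± 0.11) and Dlx2 (0.011 ± 0.082). Whether prethalamic cells were in the dissected pieces cannot be told from these values. Pax6, a master regulator of forebrain and eye with the most reads of the list, differed by -0.35 ± 0.03.

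The zona limitans and the floor of the diencephalon held the widest range. Of 10 genes, 7 were lower and 3 higher, with a median of -0.60. Foxb1, a forkhead gene of the mammillary region, was at 58.8 reads in WT and 1.34 in MD43. Foxa1 was at 28.3 and 5.29 reads (-2.89 ± 0.48), and Nkx2-2, a homeobox gene next to the source of Sonic hedgehog, at 61.2 and 12.0 reads (-2.83 ± 0.32). Foxa2 went the other way, with 4.24 reads in WT and 19.8 in MD43 (1.74 ± 0.55), the single gene of the 4 lists past 2-fold in this direction. The Sonic hedgehog gene Shh differed by -0.34 ± 0.09 and its receptor gene Ptch1, with the most reads of the list, by -0.53 ± 0.03.

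In the list of the epithalamus and pretectum, 8 of 11 genes were lower and 3 higher, with a median of -0.27. Irx1, an Iroquois homeobox gene, was lower by -1.58 ± 0.31 and Irx2 by -0.91 ± 0.22, while the homeobox gene Dmbx1 was higher by 0.79 ± 0.13. Otx2, a regulator of fore- and midbrain identity with the most reads of the list, differed by -0.62 ± 0.03.

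The list of family relatives held paralogues of members beside more distantly related homeobox and bHLH genes, and all were weakly expressed. Of 8 such genes, 5 belonged to the background, 4 lower and 1 higher, with a median of -1.30 that was -0.21 with 1 RPKM added. Bhlhe22, a bHLH gene related to the Olig genes, was at 24.98 reads in WT and 3.16 in MD43 (-3.46 ± 0.61). The homeobox genes Bsx (-1.61 ± 0.56) and Barx1 (-1.30 ± 0.30) were also at least 2-fold lower, and Barx2 differed by -0.38 ± 0.21. Bhlhe22, Bsx and Barx1 had 10 to 50 reads in their higher genotype, where 9.39% of the background was at least 2-fold lower and 7.6% higher. Gbx1, the paralogue of Gbx2, was higher by 0.51 ± 0.49, about its counting error. Dbx2, the paralogue of Dbx1, missed the filter with 2.45 reads in WT and 5 in MD43 (0.55 ± 0.80).

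Among neighbouring regions of the forebrain, 9 of 9 genes of the hypothalamus and optic vesicle were lower. Their median of -1.01 rested on weakly expressed genes, being -0.30 over those with at least 50 reads and -0.26 with 1 RPKM added to both values. Six3, with the most reads, differed by -0.28 ± 0.05, and the homeobox genes Otp by -1.57 ± 0.31 and Rax by -2.17 ± 0.24. Of 8 telencephalon genes, 5 were lower and 3 higher (median -0.45), with Lhx8 (-1.98 ± 0.20), Tbr1 (-1.60 ± 0.17) and Lhx6 (-1.55 ± 0.22) lowest.

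**Figure D4:**
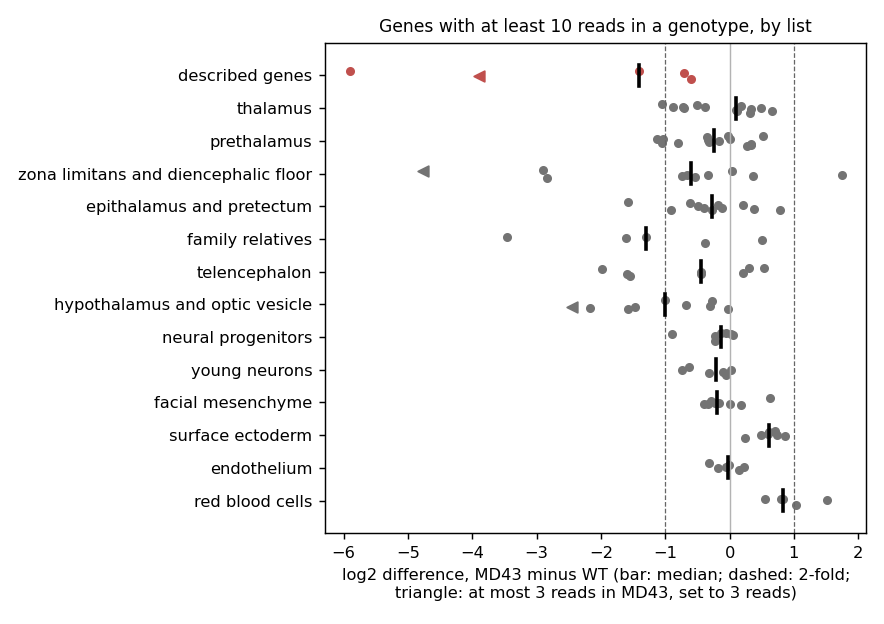
Log2 difference, MD43 minus WT (x axis), of background genes, for the 5 members that passed (red) and 13 lists (grey), with a bar at each median, dashed lines at 2-fold and triangles for genes with at most 3 reads in MD43, set to 3 reads. The thalamus list is centred near 0 at 0.11, the hypothalamus and optic vesicle list has its median at -1.01 (-0.30 over genes with at least 50 reads), and the surface ectoderm and red blood cell lists lie above 0.

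Markers of the cell types in a dissected FNP differed unequally. All 9 facial mesenchyme genes, the homeobox gene Alx4 (0.0078 ± 0.030) among them, were read in both genotypes. Their median was -0.20, and summed over the list their reads, scaled for depth, differed by -0.080 on the log2 scale. Of 7 neural progenitor genes 5 were lower and 2 higher (median -0.13, summed level -0.065), with Fabp7 at -0.89 ± 0.05, Sox1 at -0.23 ± 0.04, Hes5 at -0.23 ± 0.04 and Nes, the most read, at 0.029 ± 0.015. Of 6 young neuron genes 5 were lower and 1 higher (median -0.21, summed level -0.093), with Nefl at -0.74 ± 0.13, Ina at -0.64 ± 0.10, Stmn2 at -0.32 ± 0.06 and Tubb3, the most read, at 0.021 ± 0.028. Surface ectoderm was higher in 7 of 7 genes (median 0.61, Cldn6 at 0.87 ± 0.05). Summed over the list it had 4401 reads in WT and 9428 in MD43, a log2 difference of 0.62 once scaled for depth. Red blood cell genes were higher in 5 of 5 (median 0.84, Slc4a1 at 1.52 ± 0.08). Their summed reads were 32850 in WT and 86503 in MD43, a log2 difference of 0.92 once scaled for depth. The 6 endothelial genes had a median of -0.029. None of these markers was without reads in either genotype. The part of the neural, ectoderm, blood and hypothalamic differences in the values of the 7 genes was not tested. In bulk tissue fewer cells of a type and less RNA per cell cannot be told apart.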

How the data were processed

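Stranded mRNA libraries from the FNPs of 4 embryos (2 WT, 2 MD43) were analysed, with groups taken from the sample titles. Per the labels and the study's methods, the authors trimmed reads with Trim Galore 0.4.4, mapped them with HISAT2 2.0.5 to GRCm38.p6 and quantified them in SeqMonk. The deposited values are log2 RPKM, 1 column per genotype. The authors' own comparison, a log2 fold change and an edgeR-based FDR (q-value) listed for part of the genes, is also deposited and was not used.

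Exon lengths came from GENCODE M21 (GRCm38), matched by symbol and position for 33101 of 33708 rows. The log2 difference -0.4758 was shared by 12862 rows. In 97.9% of those matched, log2 RPKM plus log2 exon length in kb was constant. These were taken as genes without reads, counted as 0.9 reads per library, which gives read products. This step was first tested on simulated data. Of the real products between 2500 and 200000, 99.7% in each genotype were within 0.1 of a whole number. Pairs of reads were found by factorization (sympy 1.14.0). Intervals cover counting error only, and PCR duplicates were not separable.

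No test of the genotypes was run, since no values per library are in the columns used. Replicates are separate embryos. The members and lists were chosen with earlier results of these data known. Named genes are the members, Smchd1, genes within 10 kb of a member, the 3 largest differences and the gene with the most reads in each list, and the 2 nearest patterns of each member, and some of them are not reported here. Shh, Foxa2, Gbx1, Dbx2, Tal1, Gata2, Gata3, Dlx2, Dlx5, Dlx6, Sp8 and Isl1 were added after their values were seen. Alternatives were pseudocounts of 0.1 and 1 RPKM, centring, other filters and folds, and a correction for GC content and length. Python 3.11.15 was used.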

Additional observations from a re-analysis of the deposited data

How the results depend on the processing

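No paired analysis was possible because each genotype has a single merged value in the deposited table. For the same reason the planned fits without 1 library and with a replicate block were not run, and values per library from other sources were not used here. All 25 alternatives for the log2 differences of 6 members kept a negative sign. A pseudocount added to both values cannot change a sign, and centring shifted every value by only 0.0055, so this count says little. Pseudocounts moved the genes at the lowest levels most. Barhl2 was at -4.79 with 0.1 RPKM and -2.45 with 1 RPKM, Olig3 at -3.16 and -0.95, Gbx2 at -0.70 and -0.17, and Dbx1 at -0.98 with 1 RPKM. With 1 RPKM, 1 of the 3 members stayed at least 2-fold lower, and with a 1.5-fold limit there were 5, where 6.44% of the background passed. The thalamus median turned from 0.11 to -0.0702 without a filter on reads, through the added gene Helt at under 10 reads. The hypothalamus and optic vesicle median was -0.30 with at least 50 reads and -0.26 with 1 RPKM, and that of the family relatives -0.21 with 1 RPKM. Of 97 alternatives in all, 86 moved a value by less than its counting interval or a count by at most 1.5 times, among them the 2 members left past a 4-fold limit and the 2 past 2-fold with at least 50 reads. Genes with few reads meet this limit easily, as did Gbx2 at -0.17 and Olig3 at -3.90 with 3 reads per library. The count of 86 therefore does not measure stability. The recovered pairs do not tell which embryo holds which count, so whether 1 embryo sets a difference was not examined. Depth limits Barhl1 and Gbx2, and gives Olig3 as a bound alone. The alternative with 3 reads per library, the shares by read range and the read pairs were chosen after seeing the data.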
